A study of Oryza sativa with 4 samples.

Results

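The regions described here are the OsMADS27 peaks around the 12 rice centromeres. A peak was taken when its summit, the base with the most sequenced tags, lay within 2 Mb of the approximate centromere position of its chromosome. These positions are 16.7, 13.6, 19.4, 9.7, 12.4 and 15.3 Mb on chromosomes 1 to 6, and 12.1, 12.9, 2.8, 8.2, 12 and 11.9 Mb on chromosomes 7 to 12. The windows held 13103 of the 72738 peaks in the list of replicate 1 (18.0%) and 13197 of the 73366 peaks in that of replicate 2 (18.0%). Another 59112 and 59636 peaks lay elsewhere on the chromosomes, and 523 and 533 lay on unplaced sequences, which were left out of the comparisons. The choice of members used positions only and no measured value.

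The plants were young seedlings of the indica rice cultivar Pusa Basmati 1, regenerating on Murashige-Skoog medium with no further treatment, and every sample carried the same transgene, an overexpressed OsMADS27 with a 3xMyc tag at its N terminus. Chromatin was pulled down on Myc-Trap beads in 2 samples, and sheared chromatin without pull-down was sequenced as input in 2 others. The sources used here do not name the promoter of the transgene, and no pull-down from plants without the tag was analysed here. After removal of excess duplicates the pull-down libraries held 136923044 and 130482505 tags and the inputs 131452322 and 127964706. The series set out to map where OsMADS27 binds across the genome.

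OsMADS27 is a MADS-domain transcription factor, and proteins of this family bind short AT-rich elements called CArG boxes. The centromere of rice consists of tandem arrays of the CentO satellite interspersed with centromeric retrotransposons, and the chromatin around it is rich in transposable elements and poor in genes. Reads from such repeated sequence match many places, and the sources used here do not say how the alignment treated them. Chromosome coordinates are those of the lists, whose genome build is not given there either, so no peak was assigned to a gene and no sequence is shown.

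Both lists gave nearly the same values, so they are set side by side with no SD. Over 9098 pairs of window peaks with summits at most 50 bp apart, the variance of the difference in tags between replicates was 0.578 times the Poisson expectation, and over 42630 pairs outside the windows it was 0.569 times. The replicates thus differed by less than the sampling noise and were counted as 1 sample, for which no test between groups of samples exists. The pairs had to be listed in both replicates, and at most 5 tags were kept per position, both of which can lower that variance. Intervals are at 95%, except for differences and ratios of medians. Those combine the opposite limits of the 95% interval of each median and are wider than 95% intervals. All intervals treat peaks as independent although neighbouring peaks are not, and cover counting error only.

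Peaks were denser around the centromeres than elsewhere on the chromosomes. The windows held 273 peaks per Mb in replicate 1 and 275 in replicate 2, against 182 and 183 per Mb outside. The ratio was 1.501 in replicate 1 and 1.499 in replicate 2, with exact binomial intervals of 1.47 to 1.53 in each. The windows cover 12.9% of the 373 Mb spanned by the lists. Peaks covered 2.76% and 2.82% of the window sequence and 1.92% and 1.96% of the sequence outside.

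The chromosomes differed from each other by far more than the lists did, but the lists count as 1 sample and give no spread between independent samples. Every window is 4 Mb long, so numbers of peaks compare directly. Chromosomes 5 and 10 were the richest. Chromosome 5 held 1627 peaks in replicate 1 and 1643 in replicate 2, and chromosome 10 held 1587 and 1683. Chromosome 8 followed with 1451 and 1425, and chromosome 4 with 1428 and 1491. These 4 chromosomes stood above the others in both lists, but the order within each of the pairs 5 and 10, and 8 and 4, turned over between the lists.

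The middle of the range was more continuous. Chromosome 7 held 1123 and 1132 peaks, chromosome 12 held 991 and 1007, and chromosome 1 held 966 and 903. Chromosome 9, whose window reaches close to a chromosome end, held 906 and 924, and chromosome 3 held 886 and 876. These 5 could not be put in a firm order, since each had a counting interval that met that of the next in at least 1 list. Chromosome 6 held 784 and 760 peaks, chromosome 2 held 679 and 695, and chromosome 11 held the fewest, 675 and 658. The richest window held 2.41 times the peaks of the poorest in replicate 1 (chromosome 5 over 11, 2.202 to 2.64). In replicate 2 it held 2.56 times (chromosome 10 over 11, 2.34 to 2.80). These windows were picked as the extremes of the same counts, which the intervals do not allow for. Between neighbours in the order, only the gap from the 4 richest chromosomes down to chromosome 7 was clear of the counting intervals in both lists. The lists differed by at most 6.74% of their mean, on chromosome 1, and by a median of 2.15%.

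**Figure D1:**
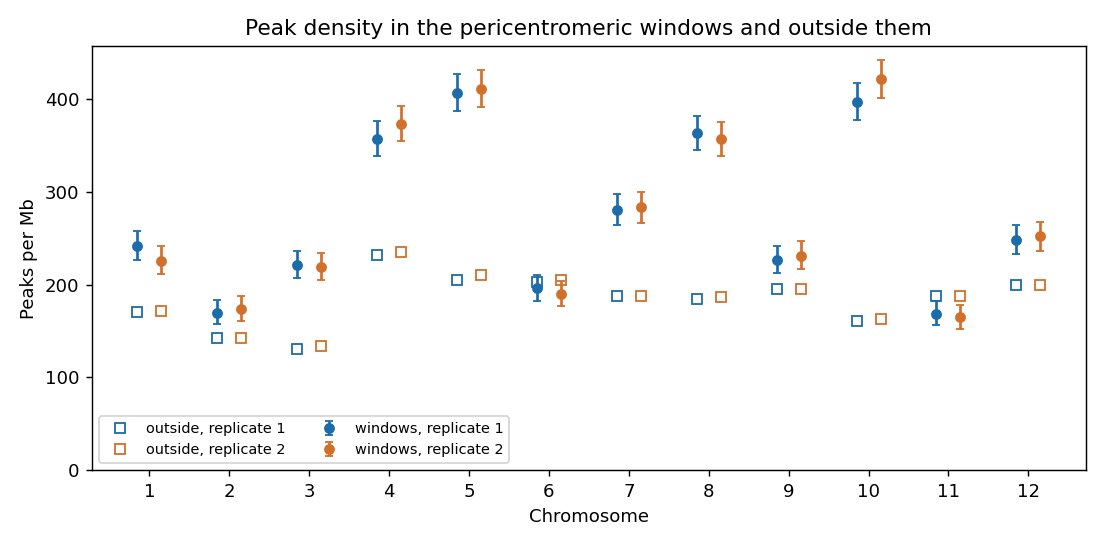
Peaks per Mb (vertical axis) on each chromosome (horizontal axis), in the window (filled circles, with exact Poisson 95% intervals) and outside it (open squares), for both lists. Chromosomes 4, 5, 8 and 10 stand above 350 peaks per Mb in their windows, and on chromosomes 6 and 11 the window does not exceed the rest of the chromosome.

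Compared with the rest of its own chromosome, the window was denser on 10 of the 12 chromosomes in both lists, and the interval lay above 1 on the same 10. The ratio was highest on chromosome 10, at 2.46 in replicate 1 (2.31 to 2.62) and 2.58 in replicate 2 (2.43 to 2.73). It was 1.99 and 1.96 on chromosome 5, and 1.96 and 1.91 on chromosome 8. On chromosome 3 it was 1.70 and 1.64, where the window was not rich but the rest of the chromosome was the sparsest of all, with 130.3 and 133 peaks per Mb. Chromosome 4 had a ratio of only 1.54 and 1.58, since the rest of it was the densest of all, with 232 and 235 peaks per Mb. The other way round, chromosome 11 had fewer peaks in the window than outside, with ratios of 0.899 (0.828 to 0.975) and 0.877 (0.807 to 0.952). Chromosome 6 was near 1, at 0.969 (0.898 to 1.04) and 0.926 (0.857 to 0.999).

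Density was highest next to the centromeres and lower far from them, but it did not fall evenly. Over all chromosomes, the innermost 0.5 Mb on either side held 311 and 309 peaks per Mb, and the outermost part of the windows, from 1.5 to 2 Mb, held 249 and 255. Just past the border, from 2 to 2.5 Mb, density was somewhat higher again, at 264 and 273 per Mb. It was 198 and 194 per Mb from 5 to 5.5 Mb, 250.0 and 252 from 5.5 to 6 Mb, as high as at the edge of the windows, and 138 in both lists from 9.5 to 10 Mb. In the last 0.1 Mb inside the border there were 583 and 639 peaks, with a median fold enrichment of 1.73 in both lists, and in the first 0.1 Mb outside it 705 and 717, with medians of 1.80 and 1.84. The peaks just outside the border were thus more numerous than those just inside, and the excess was broader than the windows.

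**Figure D2:**
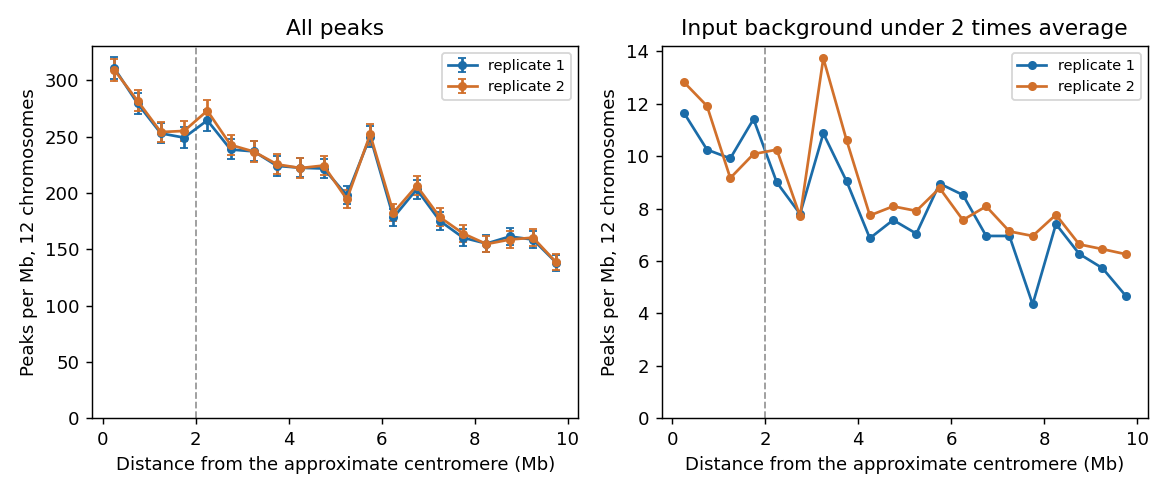
Peaks per Mb (vertical axes) against the distance from the approximate centromere in steps of 0.5 Mb (horizontal axes), over all 12 chromosomes, for all peaks (left, with exact Poisson 95% intervals) and for peaks with an input background under 2 times average (right). The dashed line marks the 2 Mb border, across which the density of all peaks rises in both lists, from 249 to 264 and from 255 to 273 per Mb.

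Within the windows the gradient was not the same everywhere. The inner 2 Mb was denser than the outer 2 Mb on 9 chromosomes in replicate 1 and 8 in replicate 2, 8 of them in both. Chromosome 3 was the steepest, with 652 peaks in the inner and 234 in the outer part in replicate 1, and 636 and 240 in replicate 2. Chromosome 7 went the other way, with 505 inner and 618 outer peaks in replicate 1 and 485 and 647 in replicate 2. Chromosome 5 was lopsided, with 1048 and 1065 peaks on the side of lower coordinates and 579 and 578 on the other.

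At a scale of 100 kb the windows were patchy, and both lists showed the same patches. The median of the 480 bins was 22 peaks in either list, with up to 110 in replicate 1 and 114 in replicate 2. Across bins Spearman's rho between the lists was 0.97, a description of bins that share their repeats and their mapping. The densest bin of all by the mean of the lists was at 11.5 to 11.6 Mb on chromosome 5, with 110 and 111 peaks. That of chromosome 10, at 7 to 7.1 Mb, held 96 and 114. On chromosome 8 the densest bin, at 12.5 to 12.6 Mb, held 94 and 89 peaks, and on chromosome 4 that at 10.1 to 10.2 Mb held 81 and 93. The densest bins of chromosomes 2, 3, 7 and 12 held 62 to 79 peaks in each list, those of chromosomes 1, 6 and 9 held 51 to 60, and that of chromosome 11 held 40 and 41. Only the bins at 9.1 to 9.2 Mb on chromosome 4 and 7.5 to 7.6 Mb on chromosome 10 were empty in both lists, although both lie in windows among the richest.

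**Figure D3:**
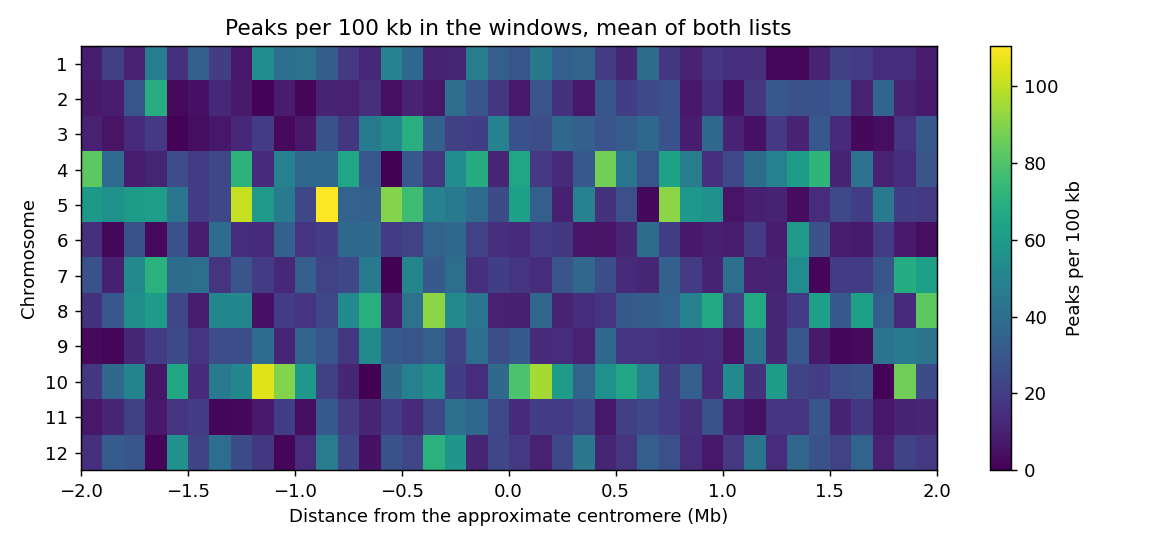
Number of peaks per 100 kb (colour, mean of both lists) by distance from the approximate centromere (horizontal axis) for the 12 chromosomes (vertical axis). The densest bin holds 110.5 peaks, on chromosome 5, and on none of the 12 chromosomes does the densest bin touch the centre.

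Neighbouring peaks lay less closely packed than outside, in spite of the higher density. A neighbouring summit within 1 kb was present for 78.3% of window peaks in replicate 1 and 78.9% in replicate 2, against 84.0% and 84.7% outside. The difference was −5.71 percentage points in replicate 1 (−6.48 to −4.95) and −5.76 in replicate 2 (−6.52 to −5.02). Its size depended on the distance allowed, with a mean over the lists of −2.75 points within 2 kb. The median distance from a summit to the next was 721 and 691 bp in the windows and 565 and 549 bp outside. The share was lower in the window on 10 chromosomes in each list. Chromosome 11 had the lowest share, 65.2% and 66.1%, and chromosome 10 exceeded its outside value in both lists.

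Enrichment over input in the windows was low, as it was elsewhere. The authors' fold enrichment compares the tags over the summit with the local input background. Its median was 1.76 in the windows and 1.80 outside in replicate 1, and 1.81 and 1.84 in replicate 2. The quartiles in the windows were 1.504 and 2.08 in replicate 1 and 1.53 and 2.15 in replicate 2. The window median minus that outside was −0.0334 (−0.0474 to −0.0187) and −0.0284 (−0.0454 to −0.0151), small beside these quartiles. A median summit held 268 and 261 tags, against 274 and 265 outside, and a median peak was 89 and 90 bp wide, against 90 bp outside in both lists.

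For folds of 3 or more, the windows differed from the rest by less than the counting error. They were reached by 272 window peaks in replicate 1 (2.08%, Wilson interval 1.85 to 2.33%) and 404 in replicate 2 (3.06%, 2.78 to 3.37%), and by 2.15% and 3.03% of all listed peaks. The share minus that outside was −0.0980 percentage points in replicate 1 (−0.358 to 0.185) and 0.0195 in replicate 2 (−0.294 to 0.356). This held at a limit of 3 but not at 2, where the difference was −2.74 and −2.71 points. Chromosome 3 had the largest share of such folds in both lists, 3.39% and 5.71%, and chromosome 5 the smallest, 1.04% and 1.64%. The highest fold in a window was 5.34 in replicate 1 and 5.21 in replicate 2.

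The input background was high at window peaks, but no higher than at peaks elsewhere. It is the local level the peak caller compared with, not a count of input tags at the summit, which can be lower. At the median window peak it was 140.0 and 136 tags, or 8.52 and 8.502 times its average over the genome. Outside the windows it was 141 and 136 tags. The ratio of the medians was 0.993 (0.972 to 1.01) and 1.00 (0.985 to 1.01). The chromosomes did differ. The windows with the highest background were those of chromosomes 10, with 165 and 164 tags, and 5, with 163 and 162, and the lowest was that of chromosome 11, with 108 and 103. The median background was above that of the rest of the chromosome on 4 chromosomes in each list, of which 4, 5 and 10 were the same in both.

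Chromosomes with dense windows had a higher input background at their peaks and lower folds. Across the 12 chromosomes, Spearman's rho between peak density and median input background was 0.92 in both lists (Pearson's r 0.92 and 0.95), and between density and median fold −0.92 and −0.79 (r −0.87 and −0.75). Chromosomes 10 and 5 had median folds of 1.70 and 1.71 in replicate 1 and 1.75 and 1.76 in replicate 2, and chromosomes 2 and 11 had 1.86 in replicate 1 and 1.89 and 1.86 in replicate 2. The 12 points come from the same libraries, and input enters both measures, since the fold is divided by it. Density in the window followed density outside only weakly, with rho of 0.30 and 0.27.

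The highest tag numbers were somewhat commoner in the windows as a whole, most of all on chromosomes 5 and 10. With 50 bp tags and at most 5 kept per position and strand, a summit can hold no more than 500 tags, which bounds the fold where input is high. At least 450 tags were found at 831 window peaks in replicate 1 (6.34%) and 792 in replicate 2 (6.001%), against 5.68% and 5.14% of all listed peaks. The share exceeded that outside by 0.880 percentage points (0.434 to 1.35) and by 1.13 (0.697 to 1.58). Chromosome 5 held 195 and 184 of these peaks, chromosome 10 held 155 and 161, and chromosome 11 held 15 and 17. Chromosomes 8 and 4 also exceeded the shares of all listed peaks, with 7.44% and 7.58%, and 6.72% and 6.51%. Chromosome 12 did so slightly, with 5.75% and 5.26%. With chromosomes 5 and 10 left out, a choice made after these counts were seen, the share was 4.86% and 4.53% in the windows and 5.39% and 4.71% outside. The difference was then −0.525 percentage points in replicate 1 (−0.978 to −0.0428) and −0.182 in replicate 2 (−0.617 to 0.283). Chromosomes 5 and 10 had the highest window shares, so leaving them out lowers the window share by construction.

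Peaks at low input background were also denser around the centromeres. The local background never fell below the genome-wide average in either list, so that average is a floor, and 42 and 59 window peaks lay at it. An input background under 2 times the genome-wide average was found at 519 window peaks in replicate 1 (3.96%) and 528 in replicate 2 (4.00%), against 3.72% and 3.99% of all listed peaks. Per Mb there were 10.8 and 11 in the windows and 6.68 and 7.33 outside, a ratio of 1.62 (1.47 to 1.78) and 1.501 (1.36 to 1.65). The excess was present at every level of input, with ratios of 1.39 to 1.68 over 5 bands of background in replicate 1 and 1.44 to 1.63 in replicate 2. The window was denser in low-background peaks on all 12 chromosomes in replicate 1 and on 10 in replicate 2, where chromosomes 5 and 10 fell below the rest of the chromosome.

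The low-background peaks were ordered differently among the chromosomes. Chromosome 3 held 56 and 79, the most in replicate 2, and chromosome 6 held 59 and 43, the most in replicate 1. Chromosome 5, among the richest in all peaks, held 35 and 27, and chromosome 10 held 37 and 35. Across chromosomes rho between the density of all peaks and that of low-background peaks was −0.34 and −0.69. By the sum of both lists, the bins with the most were on chromosome 8, with 16 and 11 at 11.1 to 11.2 Mb and 8 and 8 at 11.2 to 11.3 Mb, and on chromosome 3, with 7 and 9 at 19.3 to 19.4 Mb, against a median of 1 per bin. Their lists agreed less than those of all peaks, with a rho of 0.43 across bins.

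Window peaks were found in both lists less often than peaks elsewhere. Sharing required that a peak from each list overlap over 50% or more of the shorter one. In the windows 9793 peaks of replicate 1 (74.7%, 74.0 to 75.5%) and 9752 of replicate 2 (73.9%, 73.1 to 74.6%) were shared, against 77.2% and 76.2% of all listed peaks. The difference from outside was −3.02 percentage points in replicate 1 (−3.84 to −2.21) and −2.84 in replicate 2 (−3.67 to −2.03). With both lists first cut to folds of 3 or more, it was −7.44 and −6.10 points. That is another measure of sharing, since a partner then also had to reach 3. Sharing was lower in the window on 10 chromosomes in replicate 1 and 9 in replicate 2, 9 of them in both. Chromosome 11 was the lowest in both lists, with 65.5% and 66.7%, which differed by −10.4 and −8.95 percentage points from the rest of the chromosome. Chromosomes 5 and 10 shared more of their window peaks than of their other peaks in both lists.

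The lower sharing was seen within bands of similar input background. The bands are wide, the last has no upper limit, and peak strength was not matched in them. Over all bands the median −log10 q was 12.1 in the windows and 13.4 outside in replicate 1, and 13.3 and 14.3 in replicate 2. In all 5 bands of background, in both lists, the window share was the smaller. The difference ran from −1.57 to −4.66 percentage points in replicate 1 and from −1.69 to −4.33 in replicate 2, and from 5 times the average upward every interval of the difference lay below 0. From 5 to 10 times the average, 78.0% and 77.9% of window peaks were shared, against 80.8% and 80.1% outside. At 15 times and above the shares were 81.3% and 79.6% against 85.4% and 81.5%. Under 2 times the average only 35.6% and 33.7% were shared, against 40.3% and 37.6% outside, with intervals of the difference that include 0. A peak missing from the other list is not shown to lack enrichment there.

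**Figure D4:**
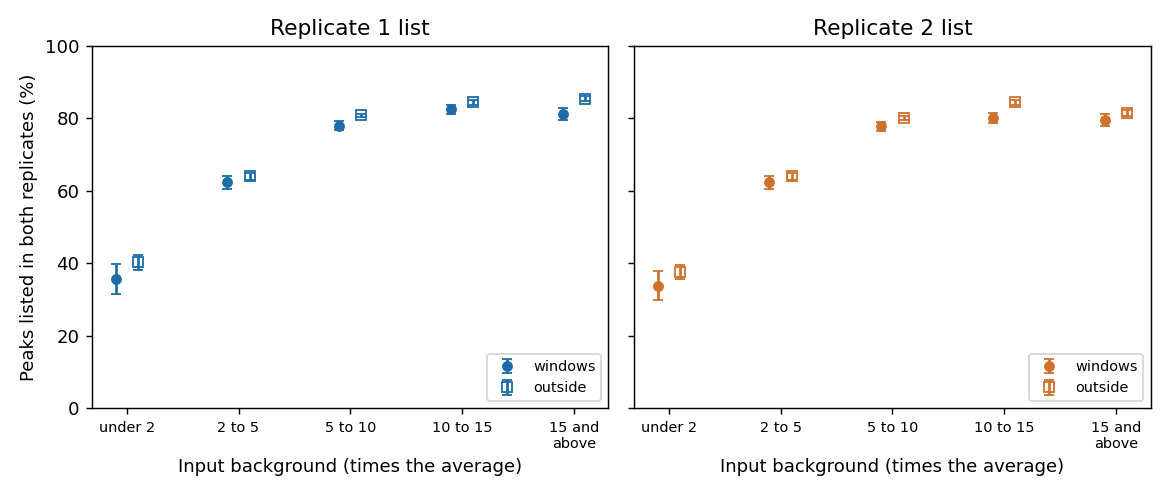
Percentage of peaks listed in both replicates (vertical axis) by input background in multiples of the genome-wide average (horizontal axis), in the windows (filled circles) and outside (open squares), with 95% Wilson intervals, for the list of replicate 1 (left) and replicate 2 (right). In every band the windows lie below the outside value.

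The strongest shared region of each window was taken as the pair with the highest smaller fold of both lists. All 12 had folds above 3 in both lists, from 3.15 to 3.78 by the smaller value. The highest was that of chromosome 7, from 11106613 to 11106666, with 4.18 in replicate 1 and 3.78 in replicate 2. There the pull-down gave 168 tags (144 to 195, exact Poisson) against an input background of 37.8, and then 153 (129.7 to 179) against 39.0. Next came that of chromosome 3, from 20175842 to 20175913, with folds of 3.76 and 3.81. There 183 and 166 tags stood against an input background of 46.0 and 42.0. Both lay at 2 to 3 times the average input background, well below the typical window peak. Tags here and below are whole tags before scaling to the smaller library. The fold instead uses tags scaled by 0.960 in replicate 1 and 0.981 in replicate 2, with 1 added to tags and background. Tags divided by background therefore exceed the fold.

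On chromosome 4 the strongest region, 9069154 to 9069304, had its background at the floor set by the genome-wide average, so its own input may be lower. The pull-down gave 71 (55.5 to 89.6) and 63 (48.4 to 80.6) tags there against this floor of 16.4 and 16.0 tags, folds of 3.97 and 3.69, although its summits in the lists were 110 bp apart. It ends less than 100 kb from the empty bin of that chromosome. That of chromosome 10, from 7899103 to 7899157, gave 151 and 147 tags against an input background of 39.0 in both lists, folds of 3.65 and 3.63. Low tag numbers widen the intervals on chromosome 4, whereas those of chromosomes 3 and 7 rest on more than 150 tags in each list.

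The other strongest regions were of the same order. They were 16223993 to 16224044 on chromosome 1 (folds 3.50 and 4.00), 16563357 to 16563482 on chromosome 6 (3.92 and 3.46), 11688229 to 11688285 on chromosome 5 (3.38 and 3.37) and 12786263 to 12786312 on chromosome 8 (3.36 and 3.76). The last of these lay 0.114 Mb from the approximate centromere, the closest of the 12. The remaining ones were 15177991 to 15178054 on chromosome 2 (3.32 and 3.28), 2332425 to 2332477 on chromosome 9 (3.26 and 3.40), 10752029 to 10752177 on chromosome 12 (3.22 and 3.17) and 12592932 to 12592984 on chromosome 11 (3.15 and 3.37). The input background was under 2 times the average in both lists at 3 of the 12, on chromosomes 4, 5 and 11, and the lowest −log10 q of any was 14.8. In all, 59 pairs in the windows had folds of at least 3 in both lists, which is 0.602% of window pairs, against 437 such pairs or 0.778% over the whole lists. The share minus that of all other pairs was −0.212 percentage points (−0.373 to −0.0220). None of the 12 had values identical to those of another pair.

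Peaks with identical values at separate places were found in the windows at close to the share over the whole lists. Equal tag number, fold and width in both lists at once were found at 1104 window peaks of replicate 1 (8.43%) and 1094 of replicate 2 (8.29%), against 8.73% and 8.64% of all listed peaks. The share minus that outside was −0.375 percentage points (−0.893 to 0.163) and −0.437 (−0.949 to 0.0955). Only peaks listed in both replicates can be in such a set. These were 74.7% and 73.9% of window peaks, against 77.8% and 76.7% outside, and this was not adjusted for. The share was highest on chromosome 5, at 10.8% and 10.6%, and lowest on chromosome 1, at 4.35% and 4.65%. The largest sets were spread over the genome: of the 40 peaks of the largest, 6 lay in windows, as did 6 of the 35 of the next and 5 of the 29 of the third.

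Other sets belonged to a single window. There were 2204 sets in all, and the windows cover 12.9% of the length. Sets confined to other stretches of the same size are not given here. Of the 665 sets with a member in a window, 200 had all their members in the window of 1 chromosome, 446 peaks in all. The largest of these had 19 members on chromosome 9, all 79 bp wide with 137 tags and a fold of 1.62 in replicate 1, and all 80 bp wide with 136 tags and a fold of 1.84 in replicate 2. They spanned 92.5 kb from 2755893 to 2848355, a stretch that holds the approximate, rounded centromere position of 2.8 Mb. In this stretch 28 peaks were listed in replicate 1, so 19 of 28 were alike. In replicate 2, 22 peaks shared the value of 136 tags and fold 1.84, over 118 kb from 2755892 to 2874093. They were 22 of the 43 peaks listed there, a smaller share than in replicate 1.

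Some members of this set on chromosome 9 lay at short distances from each other that were close to multiples of 1 step. Of the 18 distances between neighbouring members in replicate 1, from 327 to 15494 bp, 5 were at most 2500 bp. All 5 were within 10 bp of a whole multiple of 161 bp, the best of all steps from 100 to 400 bp. In replicate 2, 8 of 21 distances were at most 2500 bp, and 6 of them were within 10 bp of a multiple of 160 bp, the best step there. For example, a distance of 327 bp was 2 steps of 163.5 bp, and one of 810 bp was 5 steps of 162 bp. The step was chosen on the same distances, the lists share most of these summits, and no test was made. Over all window peaks the commonest distance from a summit to the next fell at 160 to 170 bp in replicate 1 and 170 to 180 bp in replicate 2, but distances up to 250 bp were nearly as common, and outside the windows the commonest was 180 to 190 bp in both lists.

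Runs of this kind were then sought everywhere, by a rule chosen after the set on chromosome 9 had been seen. A run was taken as at least 4 peaks of 1 chromosome with equal tag number and equal fold in a list, each at most 50 kb from the next. Replicate 1 had 55 runs, of which 22 (40.0%) lay in the windows, and replicate 2 had 59, of which 21 (35.6%) did. Per Mb this was 4.52 times as many as outside in replicate 1 (2.51 to 7.98) and 3.74 times in replicate 2 (2.09 to 6.54). The windows held 18.0% of all listed peaks in each list, on 12.9% of the length. A run needs several peaks near each other, and the ratios in this paragraph are per Mb and not per peak. They were not adjusted for the higher peak density in the windows, and how much of the excess went with it was not tested. The set that prompted the rule is among these runs. Without chromosomes 8 and 9 the ratio was 4.58 and 2.98, and it moved with the length required, to a mean over the lists of 2.32 for at least 3 peaks and 9.29 for at least 5. Runs at 1 place depend on each other. With runs at most 50 kb apart joined into 1 locus, 13 of 31 and 13 of 33 loci lay in the windows, a ratio of 4.89 (2.203 to 10.6) and 4.40 (2.01 to 9.30).

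Many of these runs stood close to the middle of the windows. Within 0.5 Mb of the approximate centromere there were 11 of the 22 window runs in replicate 1, on 7 chromosomes. In replicate 2 there were 9 of 21, on 6 chromosomes. This zone held 3729 of all 13103 window peaks in replicate 1 and 3709 of 13197 in replicate 2. The runs there depend on each other, and joined into loci they were 8 of 13 and 7 of 13. Chromosomes 4, 6, 7, 8, 9 and 11 had such a run in both lists. On chromosome 11 there were 4 in replicate 1 between 12108432 and 12329065, of which 1 with 6 peaks of 197 tags reached a fold of 2.76, the highest of any window run, and had no counterpart among the 3 runs of replicate 2 there. Next to the centre of chromosome 8, 5 peaks from 12936691 to 12991798 had 302 tags and a fold of 1.88 each, and their counterparts in replicate 2 had 275 tags and a fold of 1.84. On chromosome 4, 4 peaks from 9790773 to 9819135 had 188 tags in replicate 1 and 183 in replicate 2. Chromosomes 1, 3 and 12 had no run of this length in their windows in either list.

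**Figure D5:**
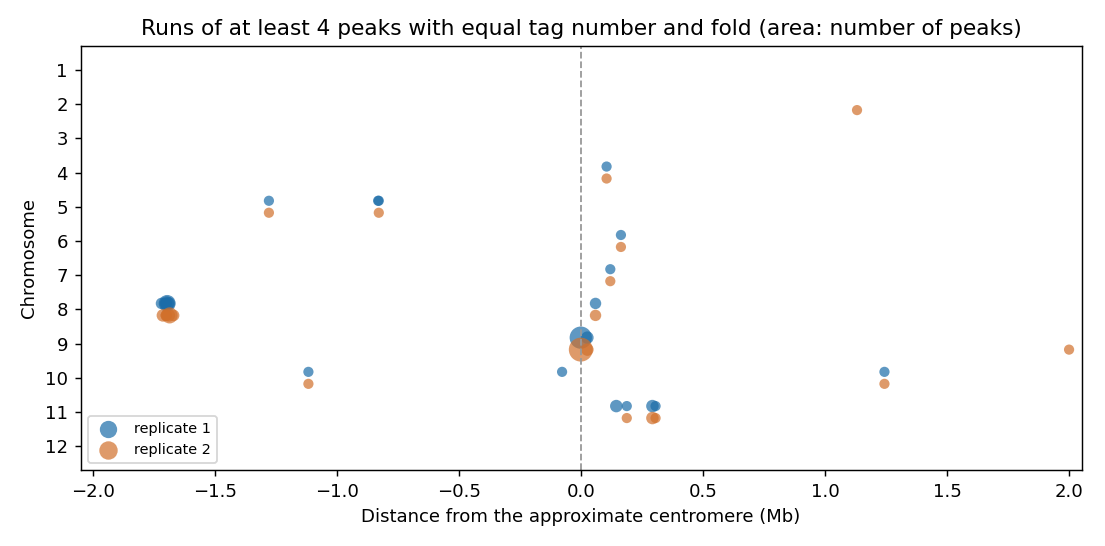
Runs of at least 4 peaks with equal tag number and fold, by distance of their mean position from the approximate centromere (horizontal axis) and chromosome (vertical axis), for both lists. The area of a point grows with the number of peaks, 22 at most. Runs of chromosomes 4, 6, 7, 8, 9 and 11 lie within 0.5 Mb of the centre in both lists, and another group lies near −1.7 Mb on chromosome 8.

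The largest group of runs was not at a centre. On chromosome 8, 6 runs of replicate 1 with 40 peaks lay between 11165997 and 11244718, and 6 runs of replicate 2 with 37 peaks between 11155628 and 11247092. The largest in replicate 1 had 11 peaks of 106 tags and a fold of 1.80, and the largest in replicate 2 had 10 peaks of 238 tags and a fold of 1.43. The median input background of its 78 and 76 peaks was 46.0 and 41.0 tags, and 19 and 16 of them were under 2 times the average, of 53 and 40 such peaks in the whole window of chromosome 8. Only 51.3% and 56.6% of its peaks were shared, and 1 peak in each list had a fold of at least 3. This stretch holds the bins with the most low-background peaks named above, so the count of low-background peaks on chromosome 8 includes repeated values.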

How the data were processed

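Cutadapt and MACS2 are the tools named in the submitters' processing notes. The authors ran MACS 2.2.5, per the file headers, on each pull-down library against the input of the same number, with a q cutoff of 0.05, 50 bp tags not extended and at most 5 tags per position. The sources used here name no aligner. The deposited pileup is a signal, tags over the summit scaled to the smaller library, and division by that scale gave whole tags within 0.02 for 100% of peaks. The deposited fold is a ratio of pileup plus 1 to local input plus 1, from which the input background was computed. Significance was deposited on the −log10 scale, of which only q is printed. Chromosomes were taken to end at the last listed peak. Wilson, Newcombe, exact binomial, exact Poisson and order-statistic intervals were used. The regions named by a fixed rule are the strongest shared pair and the densest 100 kb bin of each window and the 3 largest identical sets. The chromosome 9 set, the runs, the chromosome 8 stretch and the low-background and empty bins are further picks outside that rule. The members, measures and alternatives were chosen with earlier results of these data known. Overlap, density and run code was tested on simulated data. Calculations used Python 3.11.15, NumPy 2.4.6, pandas 2.3.3 and SciPy 1.17.1.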

Additional observations from a re-analysis of the deposited data

How the results depend on the processing

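Apart from leaving out a list, 77 alternative values were computed for 13 compared quantities. Of these, 63 stayed within the range of both lists' counting intervals, 13 left it and 1 reversed. The reversed one was the excess near the tag ceiling, from 1.003 to −0.353 points as the mean of both lists without chromosomes 5 and 10. Those chromosomes were left out for having the highest shares, which lowers the window share by construction. The ratio of peak density, 1.501 and 1.499, was 1.57 with windows reaching 1 Mb, 1.55 with all centres moved 0.5 Mb to the left, 1.60 with peaks under 200 bp apart joined and 1.63 against peaks more than 5 Mb away. The ratio of the richest to the poorest window, picked anew under each setting, was 2.48 as the mean of both lists. It was 2.83 with windows reaching 1 Mb, 3.05 with the centres moved to the left and 2.07 among folds of at least 3. Among those folds the richest window was that of chromosome 7 in replicate 1, with 31 peaks, and chromosome 3 in replicate 2, with 50. The poorest were those of chromosome 2, with 14, and chromosome 11, with 26. Chromosomes 5 and 10 then held only 17 and 18 in replicate 1 and 27 and 30 in replicate 2. The difference in sharing, −2.93 points, was −6.77 with both lists cut to folds of at least 3, where partners also had to reach 3. With a limit of 2 in place of 3, high folds were rarer in the windows by 2.72 points (−2.72). Identical values, −0.406 points, were at 0.270 with windows reaching 1 Mb. Chosen after seeing the data, runs of at least 5 peaks gave a ratio of 9.29 in place of 4.13, from 17 and 21 runs, runs of at least 3 gave 2.32, and neighbours within 500 bp and 2 kb gave −7.70 and −2.75 points in place of −5.74. Leaving out a list gives the other list's own value, which lies inside that range by construction: 1.499 to 1.501 for density, 2.41 to 2.56 for the richest window, 1.501 to 1.62 for low background and 3.74 to 4.52 for runs; sharing needs both lists. No paired analysis was possible because each list is a finished set of calls in which the matching input had been used.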
